A study of Caenorhabditis elegans with 12 samples.

Results

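The dlk-1 mutant of Caenorhabditis elegans was compared with wild type while both were on fluvastatin, over 6 libraries of the 12 in the series. These are the 3 libraries of each genotype from plates with 1 mM fluvastatin, taken because their labels give that genotype and that dose. The other 6 libraries are the same genotypes without the drug (0 mM), and they serve here as the comparison. Synchronized animals were grown to the L4 larval stage on OP-50 bacteria, washed, and put on fresh OP-50 plates with or without the drug for 9 h. RNA came from whole animals, so fewer cells of a type and less RNA per cell cannot be told apart. The sample titles call the mutant p38_KO and the genotype label calls it a dlk-1 mutant. No label used here names the allele, or says that the replicates came from different cultures. The p-values then speak only of the spread among these libraries, which may be technical.

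Fluvastatin inhibits HMG-CoA reductase, the enzyme that makes mevalonate, the precursor of prenyl groups. DLK-1 is a MAP kinase kinase kinase. It acts through the kinase MKK-4 on the p38 kinase PMK-3, a cascade best known in C. elegans for synapse formation and axon regrowth, and the bZIP factor CEBP-1 lies downstream of it. The ubiquitin ligase RPM-1 and its F-box partner FSN-1 keep the level of DLK-1 low. The comparison asks which transcripts differ in abundance between the dlk-1 mutant and wild type in animals exposed to a statin.

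Values are normalised read counts, that is, reads divided by 1 size factor per library, with 1 transcript model per gene. Summed over these models, libraries held 9370975 to 12438131 reads. The test used log2(value + 1), with limma fitted to all 12 libraries and the replicate number as a block. A gene was called when its Benjamini-Hochberg adjusted p over 15529 genes was under 0.05, two-sided. Log2 differences are mutant minus wild type on this scale. The value after ± is a standard error unless marked SD. It comes from limma's fit to all 12 libraries, 3 per group, so it pools the spread over all 4 groups. Among the 6 fluvastatin libraries the first principal component (70.3% of the variance) set replicate 2 of each genotype apart from replicates 1 and 3, and the second (14.1%) parted replicate 1 from replicate 3. The third (7.94%) held wild type above mutant within every replicate number. The median standard deviation of a gene within a group was 0.27 log2 units, against 0.165 log2 units for the differences between libraries of the same number.

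With fluvastatin, 42 genes were called, which is 0.27% of those tested. 15 were higher in the mutant (0.0966%) and 27 lower (0.174%). The changes were small. Their median absolute log2 difference was 0.71, the range was 0.32 to 1.77, and 10 genes differed by at least 2-fold (4 higher, 6 lower). The falls included sptl-2 and spl-2 of sphingolipid metabolism, fat-5 and elo-6 of fatty acid metabolism and the UDP-glucuronosyltransferase genes ugt-19 and ugt-62. The rises included the SWEET sugar transporter genes swt-1 and swt-3 and another UDP-glucuronosyltransferase gene, ugt-30. All 42 moved the same way in 3 of 3 replicate pairs, against 31.8% of all genes tested. The groups did not overlap for 37 of the 42, against 4.54% of all genes tested (1.54% higher in the mutant, 3.0% lower). These 42 were picked by a test that pairs these libraries, which favours such genes, so neither count is separate support. The calls depend on the pairing. Without the replicate block limma called 0 genes, with 227 at an unadjusted p under 0.05 against 1233 with the block, and edgeR without the block also called 0 and DESeq2 without it 7. With the block edgeR called 61, among them 39 of the 42, and DESeq2 72, among them 38. Leaving out any 1 of the 6 fluvastatin libraries left 1 to 4 calls. In each of those fits all 42 genes had the same sign and an unadjusted p under 0.05. The fits share most libraries with the one that picked the 42, so this is no separate support. ugt-19 passed in every fit that left out a library or a replicate number.

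**Figure D1:**
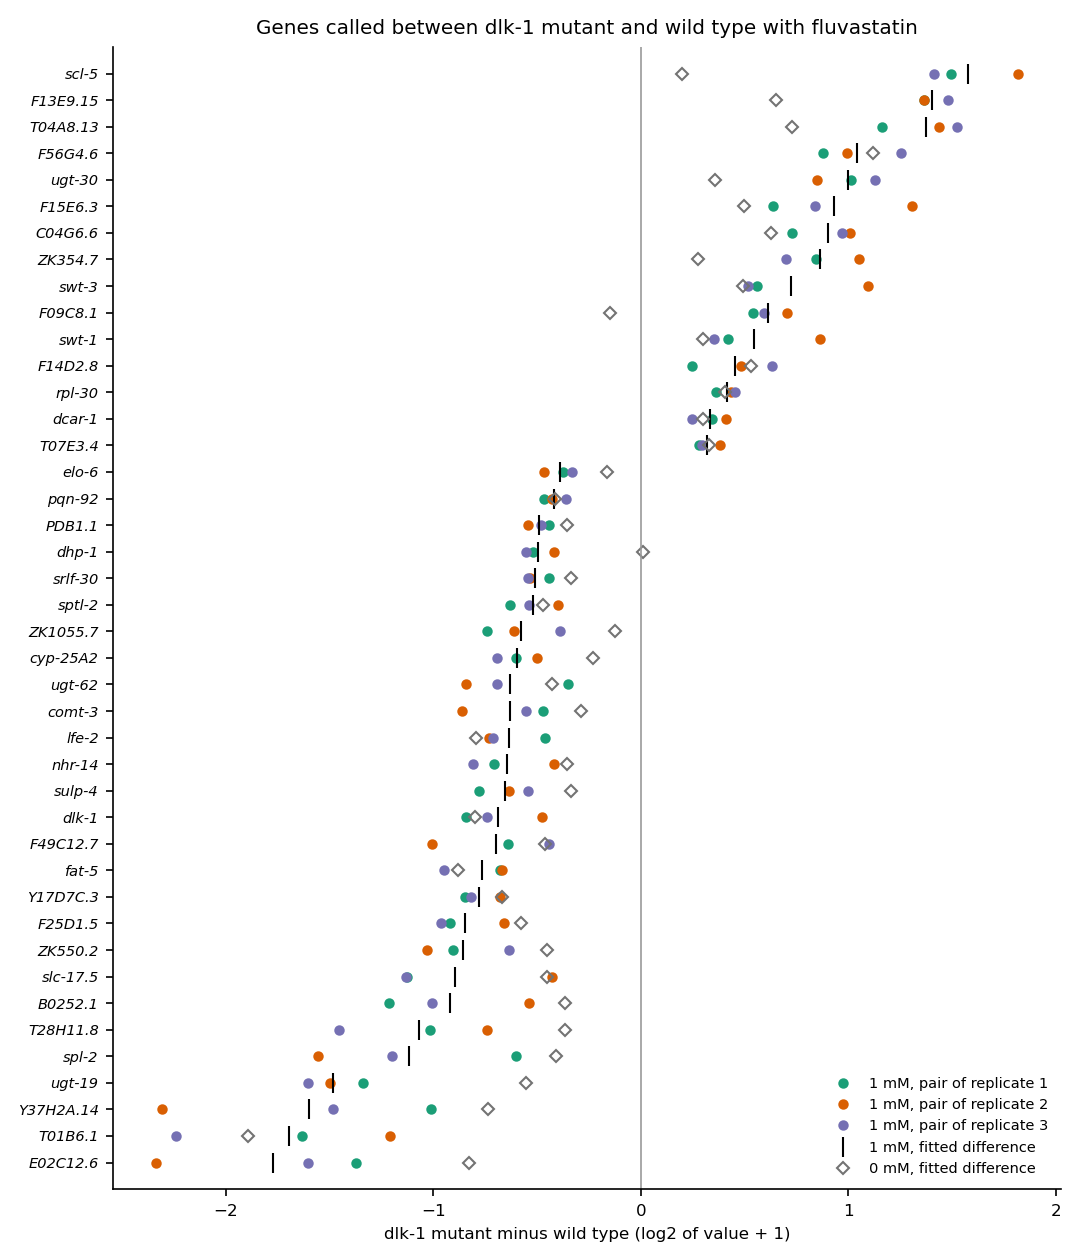
The 42 genes called between dlk-1 mutant and wild type with 1 mM fluvastatin, ordered by size. The x axis is mutant minus wild type in log2(value + 1), with 1 filled point per replicate pair at 1 mM, a bar for the fitted difference at 1 mM and an open diamond for the fitted difference at 0 mM. All 3 points of every gene lie on the same side of 0, and for 40 of the 42 genes the diamond lies on that side too.

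The mutated gene, dlk-1 (sequence name F33E2.2, on the minus strand of chromosome I from 12565800 to 12572801 in WBcel235), was reduced but present. On fluvastatin the mutant held 792, 706 and 804 normalised reads in replicates 1, 2 and 3, where wild type held 1419, 983 and 1345. Every mutant library lay below every wild-type library. The log2 difference was -0.69 ± 0.10 (adjusted p = 0.0218). Of its 5 transcript models, model c was at 49.3% of its wild-type mean, the lowest, and model e at 72.5%, the highest. The call was lost without the block (adjusted p = 1.0), and without either library of replicate 3 or of replicate 1, or without replicate 2 of the mutant (adjusted p from 0.0826 to 0.154). Since the allele is not known here, these counts do not show what the mutation does to the protein. The touch neuron gene mec-19 lies over dlk-1 and the library kit does not mark strand, so reads from the pair cannot be parted. Its own counts were low, 12, 8.33 and 11.2 in wild type against 15.2, 16.8 and 27.5, and it was not called (log2 0.82 ± 0.34, adjusted p = 0.556).

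None of the other 9 members of the DLK-1 pathway list was called. The kinase gene mkk-4 stood at 155 ± 13.3 (SD, n = 3) in wild type and 160 ± 8.44 in the mutant, and pmk-3 at 332 ± 8.29 and 321 ± 58.3. cebp-1 (D1005.3) stood at 265 ± 68.7 and 304 ± 39.5, a log2 difference of 0.22. The regulators rpm-1 (0.04), fsn-1 (0.07) and glo-4 (0.06), the downstream kinase gene mak-2 (0.12) and the ubiquitin E2 variant gene uev-3 (-0.09) differed by little. pmk-1, the p38 kinase gene of innate immunity, had a log2 difference of -0.08.

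tbb-6 (T04H1.9, chromosome V, 12261531 to 12263368, plus strand), which encodes a beta tubulin and is a known transcriptional target of PMK-3, had the largest absolute difference on that list. With fluvastatin it had 381, 460 and 401 normalised reads in wild type against 182, 190 and 195 in the mutant. The genotypes were well apart and the mutant libraries nearly equal. The log2 difference was -1.12 ± 0.36, which did not pass over all 12 libraries (adjusted p = 0.442). It passed in a fit of the 6 fluvastatin libraries alone (standard error 0.086, adjusted p = 0.00156) and with limma-voom (adjusted p = 0.0389). edgeR (adjusted p = 0.164) and DESeq2 (0.345) did not call it. Without the drug tbb-6 stood at 49.8 ± 26.6 (SD) in wild type and 38.9 ± 28.3 in the mutant, where the replicates spread widely. Another tubulin gene, tba-7, stood at 186, 202 and 218 in wild type against 117, 93.2 and 153 in the mutant. These groups did not overlap, and the log2 difference of -0.76 ± 0.15 missed the threshold (adjusted p = 0.0615). edgeR, DESeq2 and limma-voom called it (adjusted p = 0.0394, 0.0214 and 0.037), and it overlaps T28D6.3. It was named after its values were seen. Of the 14 tubulin genes tested, limma called 0, the median log2 difference was 0.01, and 9 were above 0.

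**Figure D2:**
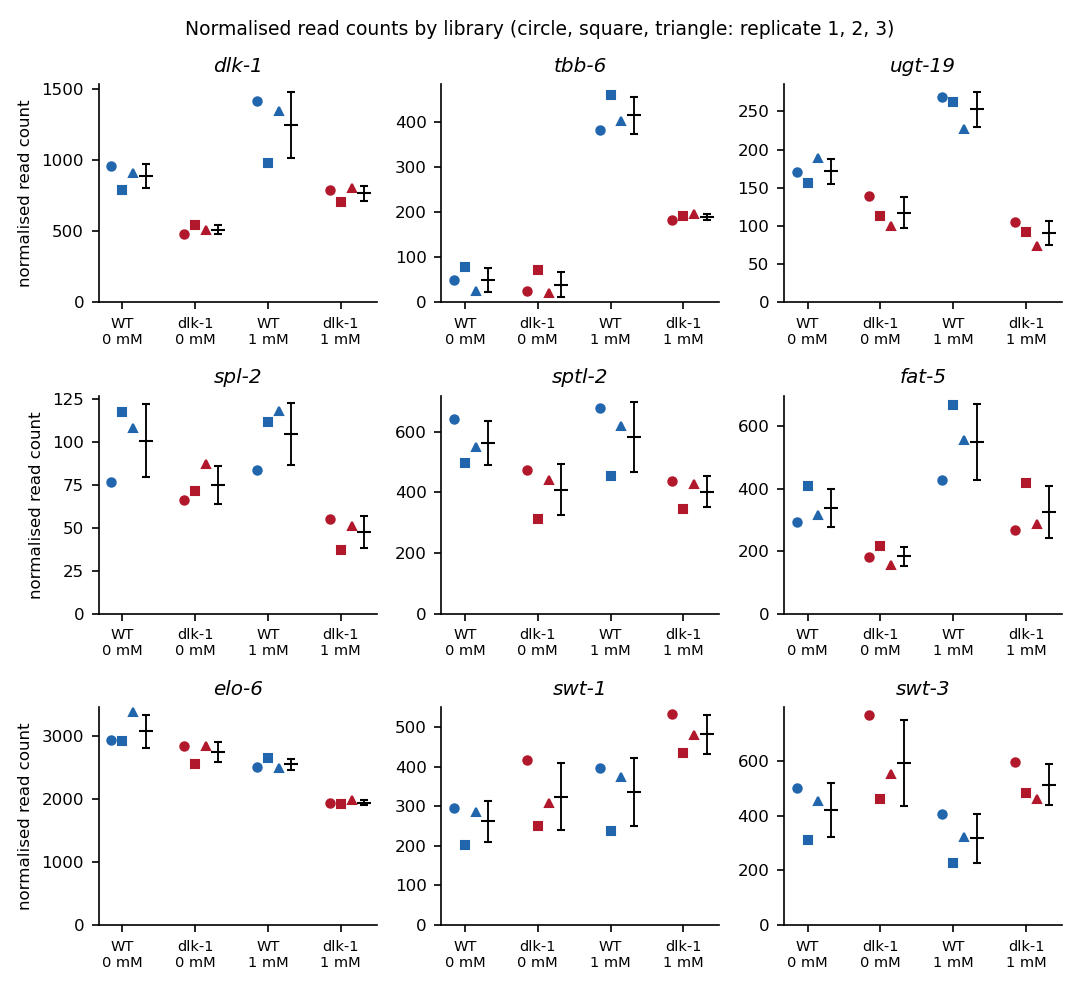
Normalised read counts of 9 genes in all 12 libraries, by group (wild type in blue, dlk-1 mutant in red). Circles, squares and triangles are replicates 1, 2 and 3, and the bar beside each group is its mean ± SD. With 1 mM fluvastatin every mutant library lies below every wild-type library for dlk-1, tbb-6, ugt-19, spl-2, sptl-2, fat-5 and elo-6, and above every wild-type library for swt-1 and swt-3.

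Sphingolipid metabolism was represented among the falls by sptl-2 and spl-2. No list of its genes was made, so the share of them called was not counted. sptl-2 (F43H9.2, chromosome V, 8017207 to 8021715, plus strand) encodes a subunit of serine palmitoyltransferase, which starts sphingolipid synthesis. Wild type had 676, 454 and 618 normalised reads and the mutant 437, 344 and 426. The mutant was lower in each pair and its libraries lay below all of wild type, with a log2 difference of -0.52 ± 0.08 (adjusted p = 0.0216). spl-2 (B0222.4, chromosome V, 9144619 to 9146899, minus strand, tag-38 in the deposited table) encodes a sphingosine-1-phosphate lyase, which acts at the other end of the pathway, in breakdown. It had 83.7, 111 and 118 reads in wild type against 54.9, 37.3 and 50.7 in the mutant. The groups did not overlap and the log2 difference was -1.12 ± 0.19 (adjusted p = 0.0322). The other subunit genes sptl-1 (-0.07) and sptl-3 (-0.12) and the second lyase gene spl-1 (-0.14) were not called.

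fat-5 (W06D12.3, chromosome V, 17725004 to 17726818, plus strand) encodes the delta-9 desaturase that acts on palmitic acid. It had 427, 669 and 555 reads in wild type against 267, 420 and 287 in the mutant. Replicate 2 was highest in each genotype, every mutant library was below every wild-type library, and the log2 difference was -0.76 ± 0.10 (adjusted p = 0.015). It overlaps the potassium channel gene twk-42. elo-6 (F41H10.8, chromosome IV, 5386629 to 5388559, minus strand), which encodes an elongase of branched-chain fatty acids, had 2519, 2649 and 2497 reads in wild type against 1940, 1919 and 1986 in the mutant. The spread within each genotype was small and the groups were well apart, with a log2 difference of -0.39 ± 0.06 (adjusted p = 0.0218). elo-5, which works with elo-6, had a log2 difference of -0.33 ± 0.07 (adjusted p = 0.0681) with no overlap of the groups. Of the 24 tested genes for fatty acid desaturation, elongation and synthesis, 2 were called lower and 0 higher, where 0.174% of all genes tested were called lower and 0.0966% higher. The median log2 difference was -0.06 against 0.01 for all genes tested. fat-6 (-0.07) and fat-7 (-0.51, adjusted p = 0.797), the desaturase genes for stearic acid, were not called.

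The mevalonate pathway, where the drug acts, held no call among 12 genes by limma, edgeR, DESeq2 or limma-voom, and 0 of the 12 had an unadjusted limma p under 0.05. hmgr-1, which encodes HMG-CoA reductase, stood at 802 ± 99.6 (SD, n = 3) in wild type and 815 ± 97.8 in the mutant with fluvastatin (log2 0.02). The median of the list was 0.02. The list is partial, since 8 of its entries matched no gene name in the deposited table.

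UDP-glucuronosyltransferases conjugate drugs and other lipophilic compounds to sugars. The gene with the lowest adjusted p of all was one of them, ugt-19 (K08B4.3, chromosome IV, 6076686 to 6079952, minus strand). It had 269, 262 and 227 reads in wild type against 106, 92.3 and 73.9 in the mutant, a wide gap with no overlap. The log2 difference was -1.48 ± 0.13 (adjusted p = 0.000477, and 0.12 without the block). Without the drug ugt-19 stood at 172 ± 16.6 (SD) in wild type and 117 ± 20.1 in the mutant, so the wild-type mean was higher with fluvastatin and the mutant mean lower. Its neighbour ugt-20 had a log2 difference of -0.56 (adjusted p = 0.287). ugt-62 fell from 2089 ± 377 to 1347 ± 204 (SD, n = 3, log2 -0.63 ± 0.11, adjusted p = 0.0482). ugt-30 went the other way, with 12.9, 10.4 and 13.5 reads in wild type against 27, 19.6 and 30.6 in the mutant (log2 1.00 ± 0.19, adjusted p = 0.0482). It was not called by edgeR, DESeq2 or limma-voom (adjusted p from 0.0907 to 0.259), and it was higher without the drug, at 67.5 ± 8.1 (SD) in wild type and 87.8 ± 20.3 in the mutant.

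Of the 61 tested UDP-glucuronosyltransferase genes, 2 were called lower and 1 higher, where 0.174% of all genes tested were called lower and 0.0966% higher. The median log2 difference of the 61 was -0.13, and 15 of 61 were above 0, against 8282 of 15529 for all genes tested. Of 59 cytochrome P450 genes, which encode oxidising enzymes of drug metabolism, 1 was called lower and 0 higher, the median was -0.20, and 10 were above 0. The called member, cyp-25A2, had 126, 193 and 127 reads in wild type against 82.8, 136 and 78.2 in the mutant, so that each pair was lower while the groups overlapped (log2 -0.60 ± 0.11, adjusted p = 0.0482). The other tools did not call it (adjusted p from 0.0562 to 0.0835). cyp-13A6, at 37.7, 36.4 and 19.1 against 9.29, 14.9 and 7.39 reads, had a log2 difference of -1.47 ± 0.33 and missed the threshold (adjusted p = 0.0896). edgeR (adjusted p = 0.0374) and limma-voom (0.0303) called cyp-13A6, and DESeq2 (0.178) did not. It was named after its values were seen. Summed over the P450 list, wild type had 26365, 23175 and 27084 normalised reads with the drug, and the mutant 25142, 20521 and 24346. The mutant sum was lower in each pair, and the groups overlapped. Wild type without the drug had 8453, 9347 and 7886, so P450 sums were far above the untreated level in both genotypes on fluvastatin. Glutathione S-transferases, another conjugating family, had 0 called of 40 and a median of -0.12.

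Some called genes belong to families of membrane transporters, with rises and falls among them. No list of all transporter genes was made, so the share of them called was not counted. Among 48 tested ABC transporter genes limma called 0, where 0.27% of all genes tested were called. swt-1 (K02D7.5, chromosome IV, 307505 to 311236, plus strand) and swt-3 (C06G8.1, chromosome IV, 10778985 to 10780683, minus strand) belong to the SWEET family of sugar transporters. swt-3 had 407, 226 and 322 reads in wild type against 600, 483 and 462 in the mutant. All mutant libraries were above all wild-type libraries (log2 0.72 ± 0.11, adjusted p = 0.0218). swt-1 had 398, 238 and 375 in wild type against 533, 434 and 480 in the mutant, again with no overlap (log2 0.55 ± 0.10, adjusted p = 0.0482). In both genes replicate 2 of wild type was the lowest library. The tested family members swt-4 (0.16), swt-5 (0.17), swt-6 (-0.36) and swt-7 (-0.05) were not called. Among the falls were slc-17.5 (F21F8.11, log2 -0.90 ± 0.17, adjusted p = 0.0482), a member of the solute carrier 17 family, and sulp-4 (log2 -0.65 ± 0.12, adjusted p = 0.0482), of the sulfate permease family of anion transporters.

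The 3 largest falls were in genes with no locus name. E02C12.6 (chromosome V) had 49.7, 51 and 66.2 reads in wild type against 18.6, 9.32 and 21.1 in the mutant (log2 -1.77 ± 0.30, adjusted p = 0.0322). T01B6.1 (chromosome X) had 41.4, 25 and 33.7 against 12.7, 10.3 and 6.34 (log2 -1.69 ± 0.27, adjusted p = 0.0268), and its span holds several neuropeptide genes whose reads cannot be parted from it. Y37H2A.14 (chromosome V) had 169, 193 and 144 against 83.6, 38.2 and 50.7 (log2 -1.60 ± 0.26, adjusted p = 0.0322). In all 3 genes the groups were clear of each other. Smaller falls were called for T28H11.8 (-1.07), B0252.1 (-0.92), ZK550.2 (-0.86), F25D1.5 (-0.85, overlapping degt-1), Y17D7C.3 (-0.78, groups overlapping) and F49C12.7 (-0.70, overlapping F49C12.6, adjusted p = 0.0499). The annotation marks Y17D7C.3 as a pseudogene.

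Regulatory and metabolic genes were also among the falls. nhr-14 encodes a nuclear hormone receptor. It had 267, 277 and 250 reads in wild type against 163, 207 and 143 in the mutant (log2 -0.64 ± 0.12, adjusted p = 0.0482). It was the only call among 175 nuclear hormone receptor genes, whose median was -0.05, where 0.27% of all genes tested were called. lfe-2, which encodes an inositol trisphosphate 3-kinase, had 321, 251 and 319 against 233, 151 and 194 (log2 -0.63 ± 0.10, adjusted p = 0.0218). dhp-1, which encodes a dihydropyrimidinase, had 547, 417 and 438 against 381, 312 and 298 (log2 -0.50 ± 0.08, adjusted p = 0.0322). None of these 3 genes had overlapping groups. A further 5 falls were named after their values were seen, to complete the list. They are comt-3 (Y40B10A.2, -0.63, overlapping nhr-86), ZK1055.7 (-0.58), srlf-30 (ZK596.1, -0.51), PDB1.1 (-0.49) and pqn-92 (-0.42).

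Among the rises, scl-5, a member of a family of secreted SCP/TAPS domain proteins, had the largest log2 difference. It had 11, 12.5 and 16.8 reads in wild type against 32.9, 46.6 and 46.5 in the mutant (log2 1.58 ± 0.22, adjusted p = 0.0205). Every mutant library was above every wild-type library. Without the drug it stood at 57.2 ± 17.4 (SD, n = 3) in wild type and 68.0 ± 32.8 in the mutant, so on fluvastatin the mean was below the untreated one in each genotype, further below in wild type. F56G4.6 (chromosome I) had 178, 187 and 146 reads against 327, 375 and 350 (log2 1.04 ± 0.18, adjusted p = 0.0482), with no overlap. F13E9.15 (1.40), T04A8.13 (1.37), F15E6.3 (0.93), C04G6.6 (0.90) and ZK354.7 (0.86) were also called higher. For T04A8.13 and ZK354.7 the groups overlapped. ZK354.7 had 109, 22.9 and 117 reads in wild type against 196, 48.5 and 190 in the mutant, so each pair was higher but replicate 2 of the mutant lay below replicates 1 and 3 of wild type.

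rpl-30, which encodes a protein of the large ribosomal subunit, had 2494, 2225 and 2614 reads in wild type against 3209, 3002 and 3585 in the mutant. The groups were clear of each other and the log2 difference was 0.42 ± 0.05 (adjusted p = 0.015). The other 82 tested cytosolic ribosomal protein genes were not called, and the median over the 83 was 0.04. dcar-1 (C06H5.7), which encodes a G protein-coupled receptor for dihydrocaffeic acid, had 634, 432 and 599 against 805, 575 and 711 reads, higher in each pair with overlapping groups (log2 0.33 ± 0.06, adjusted p = 0.0482). F09C8.1 (0.61), F14D2.8 (0.45) and T07E3.4 (0.32, overlapping brc-2) complete the rises.

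Of the 42 calls, 6 had a mean below 50 normalised reads and 10 overlap another gene. 20 carry no locus name, and no role is given for them here. None of the 42 shares its values with another gene to within 5% in all libraries.

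The same genotype difference was then read in the 6 libraries without fluvastatin. The 2 comparisons share no library, but they come from 1 fit and share its block and its estimate of the spread, so their calls are not independent. There 15 genes were called, which is 0.0966% of those tested (8 higher, 0.0515%, and 7 lower, 0.0451%). These calls were 0 without the block, 1 (irg-5) in a fit of the 6 untreated libraries alone, and 0 to 22 with 1 library left out, the 0 being without replicate 2 of untreated wild type. 7 genes were called at both doses with the same sign, 16.7% of the calls with the drug and 46.7% of those without. These were dlk-1, fat-5, sptl-2, lfe-2 and T01B6.1, all lower in the mutant, and rpl-30 and F14D2.8, both higher. For fat-5 the log2 difference was -0.88 without and -0.76 with fluvastatin, for lfe-2 -0.79 and -0.63, for sptl-2 -0.47 and -0.52, and for rpl-30 0.41 and 0.42. The sizes at the 2 doses were close. These genes were picked for passing at both doses with the same sign. A difference of like size at each dose is what such a choice tends to give and is no test.

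More widely, 40 of the 42 calls had the same sign without fluvastatin (95.2%, against 63.0% of all genes tested), and 35 had an unadjusted p under 0.05 there, against 7.41% of all genes tested. The 42 were chosen through the same estimate of the spread that sets these p-values, so the 35 are no separate support. The size was mostly smaller. 35 of the 42 had a smaller absolute log2 difference without the drug, with medians of -0.43 at 0 mM and -0.69 at 1 mM for the 27 falls and of 0.41 and 0.86 for the 15 rises. These genes were picked for their difference at 1 mM, so a smaller difference at 0 mM is what such a choice tends to give and is no test. The exceptions in sign were dhp-1 (0.01 without the drug) and F09C8.1 (-0.15). dhp-1 had 587, 373 and 465 reads in untreated wild type against 609, 399 and 429 in the untreated mutant, so the genotypes overlapped there and parted with fluvastatin.

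**Figure D3:**
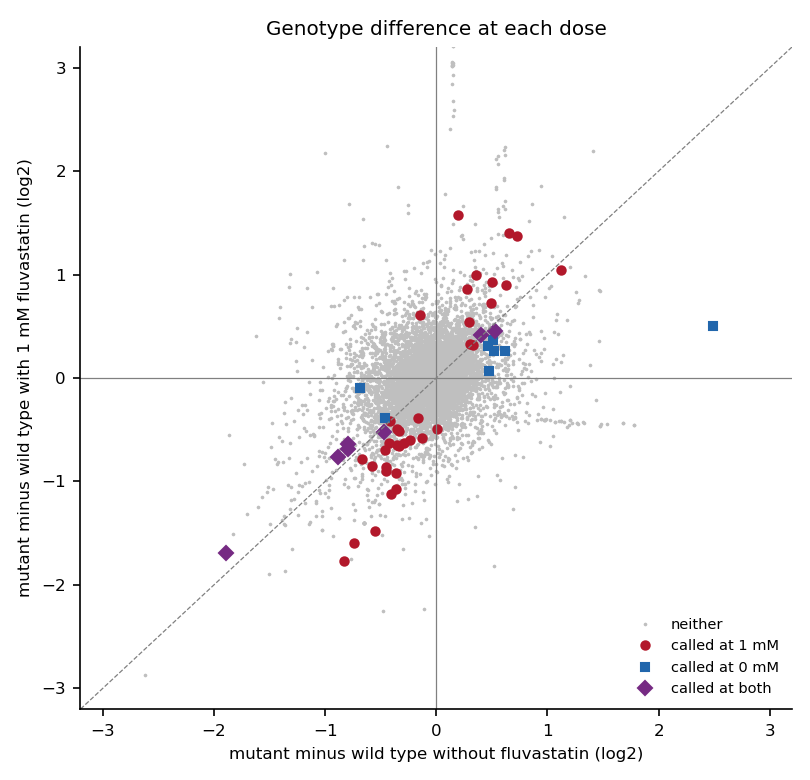
Genotype difference (mutant minus wild type, log2) without fluvastatin on the x axis and with 1 mM fluvastatin on the y axis, 1 point per gene tested, with 3 genes outside the plotted range. The dashed line marks equal differences. The 7 genes called at both doses lie near that line, which a choice by calls at both doses favours. Most genes called at 1 mM lie on the same side of 0 at both doses. irg-5 stands alone at the right with 2.49 at 0 mM and 0.50 at 1 mM.

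Whether the genotype difference itself depended on fluvastatin was tested as the difference between the differences. limma called 0 genes (0.0%), with 386 at an unadjusted p under 0.05, and the smallest adjusted p was 1.0. edgeR and limma-voom also called 0, and DESeq2 called 1. That gene was irg-5 (F35E12.5), an infection response gene. Without fluvastatin it stood at 151 ± 78.8 (SD, n = 3) in wild type and 861 ± 436 in the mutant (log2 2.49, adjusted p = 0.0252). With fluvastatin it stood at 2037 ± 489 and 2947 ± 968 (log2 0.50, adjusted p = 0.676). DESeq2's adjusted p for the difference was 0.000457 with the replicate block and 1.0 without it. Among the 42 calls, 16 had an unadjusted p under 0.05 for the difference, against 386 of all 15529 genes tested. The 42 were picked for their difference at 1 mM, which is part of what is tested here. Low p-values are what such a choice tends to give, so the 16 are no separate support. ugt-19 had the lowest unadjusted p of the 42 (0.00022), followed by F09C8.1, scl-5 and dhp-1. None of these passed the adjustment, so no gene of the 42 is shown to differ more between genotypes with the drug than without it.

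The other groups of genes were described by counts. Across 48 lists of genes by pathway, family or tissue, 6 held a call, and 9 of 2331 listed genes were called (0.386%, against 0.27% of all genes tested). The 42 lists with no call hold 1921 tested genes, 204 of them at an unadjusted p under 0.05. Over all 15529 genes tested 1233 had such a p, 547 higher and 686 lower in the mutant. In these lists edgeR called 7 genes, DESeq2 12 and limma-voom 17. Cuticle collagens had 129 of 140 genes above 0 with a median of 0.24, 21 at an unadjusted p under 0.05, all higher, and 0 called by limma (1 each by edgeR, DESeq2 and limma-voom). Without the drug the collagen median was 0.15. Summed collagen reads were 177349, 90836 and 161983 in wild type against 184498, 115864 and 172801 in the mutant, lowest in replicate 2 of each genotype and overlapping between genotypes. Collagen genes are transcribed in pulses as larvae moult, and sperm genes as germ cells differentiate, so both track stage. The sperm list had a median of -0.03 and summed reads of 46306, 21522 and 54187 against 46250, 20862 and 53490, nearly equal within each replicate number. The part of stage in the genotype differences was not tested.

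Genes of the intracellular pathogen response, a programme induced by viruses and microsporidia, had 0 called of 24 and a median of -0.30, with 7 at an unadjusted p under 0.05, all lower. Of 82 genes for fatty acid oxidation and lipases, 0 were called, while 3 higher and 14 lower had an unadjusted p under 0.05. Among all 15529 genes tested, 547 higher and 686 lower had such a p. Effector genes of the PMK-1 immune pathway had 0 called of 18 with fluvastatin and a median of 0.12. Without the drug their median was 0.39 and 2 were called higher. There 13 of the 18 had an unadjusted p under 0.05, all higher, against 7.41% of all genes tested. For the difference between doses limma called 0 of them, with 8 at an unadjusted p under 0.05. Lists of tissues showed little difference. The medians were 0.03 for 34 pan-neuronal and synaptic genes, 0.09 for 12 touch neuron genes, -0.01 for 20 intestinal genes and 0.01 for 23 muscle genes, with 0 called in each. All members of the pan-neuronal, intestinal, muscle and vitellogenin lists passed the filter on low values.

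**Figure D4:**
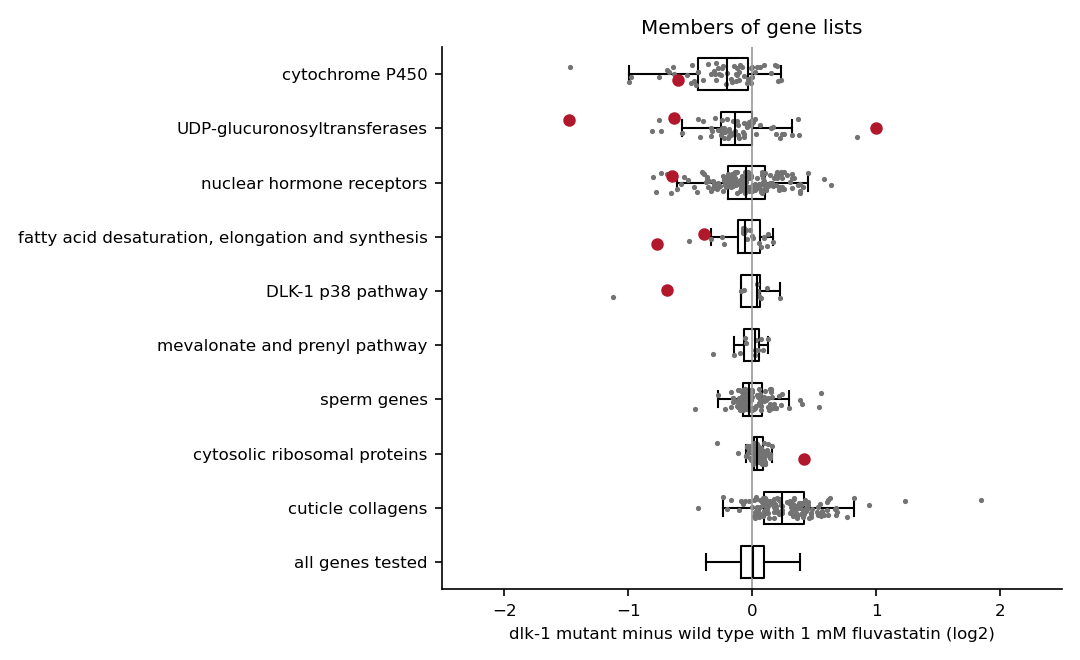
Log2 differences (mutant minus wild type with 1 mM fluvastatin) for the tested members of 9 gene lists and for all genes tested. Boxes give quartiles and median, whiskers the range without far points, grey points are members and red points are called genes. Cytochrome P450 and UDP-glucuronosyltransferase genes lie mostly below 0 (medians -0.20 and -0.13), collagens mostly above 0 (median 0.24), and sperm, ribosomal protein and mevalonate pathway genes close to 0.

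Calls were spread over the genome with more on chromosomes IV and V. These held 12 of 2616 tested genes (0.459%) and 13 of 2978 (0.437%), against 0.27% of all genes tested. On V 11 of the 13 were lower in the mutant. Chromosome I, which carries dlk-1, held 5 calls among 2513 genes. Apart from dlk-1 itself, 0 of 267 tested genes within 1 Mb of dlk-1 were called, and 1 of 561 within 2 Mb, F56G4.6. Whether the strains differ elsewhere in the genome was not tested.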

How the data were processed

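RNA was sequenced in 12 libraries, 3 in each of 4 groups, as 50 bp single reads on 1 lane from a TruSeq kit that does not mark strand, per the labels' protocols. The submitters' processing notes name Bowtie and DESeq2, with no version. The genome build and annotation behind the values were not given in the sources used. For 34873 transcript models the authors deposited a normalised signal, in which the reads of each library are scaled by its size factor. 100% of values were whole multiples of their column's step (within 0.01 read), so reads could be recovered.

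Each of 30301 genes was represented by its transcript model of highest mean over all 12 columns. Testing covered the 15529 genes that reached 10 in 3 or more libraries, as log2(value + 1), a scale that understates the change of low genes. limma 3.58.1 (R 4.3.3, trend and robust options) was fitted to all groups with the replicate number as a block, since the comparison pairs libraries by number. No label says that a number marks a shared batch, but deviations from the group means correlated for every same-numbered pair (0.555 to 0.887 over 18 pairs). All replicates differed by more than sampling noise (lowest chi-square per degree of freedom 9.18). edgeR 4.0.16, DESeq2 1.42.0 and limma-voom were run on the recovered reads as alternatives, and limma's procedure was tested on simulated data. Adjusted p-values are limma's unless another tool is named. Names, positions and overlaps come from the WBcel235 annotation of Ensembl, matched by sequence name for 29775 genes. No promoter or protein sequences were analysed here.

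Members and gene lists were chosen with earlier results of these data known, and the patterns for chemoreceptor and RNA interference genes were corrected after the files were seen. Named genes are the DLK-1 pathway list, the 15 largest rises and falls among calls with a mean of at least 20 and the same sign in 3 of 3 pairs, up to 3 calls per list, the 10 lowest p-values of the difference between doses and up to 8 calls shared by both doses. Others, such as relatives and neighbours of these genes, were named after their values were seen.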

Additional observations from a re-analysis of the deposited data

Results flagged for a closer look

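For 6 named genes every replicate pair moved one way with fluvastatin and every pair the other way without it. The difference between doses did not pass limma's test for any of them (adjusted p = 1.0 each). oac-7, srp-7 and Y54G2A.18 were picked for a low p of that difference, so opposite signs are what such a choice tends to give. The share of all genes tested with this pattern was not counted. oac-7, named for a family of acyltransferases, had a difference of -1.69 between its log2 differences, being lower in the mutant with the drug (16.6, 14.6 and 21.3 reads in wild type, 13.5, 10.3 and 8.45 in the mutant) and higher without it (7.83, 6.33 and 8.31, then 20.3, 10.5 and 19.8). The serpin gene srp-7 had -0.41, Y54G2A.18 had -0.38, and the desaturase gene fat-6 -0.14. sptl-1, a subunit gene of serine palmitoyltransferase, had -0.17. gnrr-4, which encodes a receptor of the gonadotropin-releasing hormone receptor family, had 0.93.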

How the results depend on the processing

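The count of 42 calls with fluvastatin rests on the replicate block: without it limma called 0, edgeR 0 and DESeq2 7. The last pair was chosen after seeing the data. With the block the count was 25 at a pseudocount of 0.5, 26 with no filter on low values, 19 with a value of at least 50 in 3 libraries, 21 with transcript models summed, 72 with DESeq2 and 91 with limma-voom. A fit of the 6 fluvastatin libraries alone called 62 genes, 22 of them among the 42. The count was 1 to 69 when a single library or replicate number was left out. All 42 kept their direction in every alternative that gave a value, a total of 1173 values over 28 alternatives. The alternatives reuse the libraries that picked the 42, so this is no separate support. The median log2 difference of all genes was 0.02 or less in each alternative. The 15 calls without fluvastatin became 0 without the block (edgeR 0, DESeq2 4), 1 with the 6 untreated libraries alone, 25 with DESeq2 and 0 to 22 with a library or replicate number left out. For the difference between doses the count was 0 except with DESeq2 and the block, which called 1 (DESeq2 without the block called 0), and it stayed 0 in each fit that left out a library or replicate number. Counting error is relatively largest for the 6 calls with a mean below 50 normalised reads.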
